A study of Mus musculus with 48 samples.

Results

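The MHC class I pathway was followed through 10 genes: the heavy chains H2-D1, H2-K1, H2-Q4, H2-Q7 and H2-T23, the light chain B2m, the peptide transporter subunits Tap1 and Tap2, the transporter-bound chaperone Tapbp, and Nlrc5. They were the rows of the deposited count table whose gene symbol was on that list, 10 of 35870 rows in all. Reads were counted in 48 RNA-seq libraries of C57BL/6 wild-type male mice, 8 in each of 6 groups. The old repopulated groups came from mice of 23 months that were given a Csf1r inhibitor for 5 days and then recovered for 7 days. The old groups came from mice of 23 months given vehicle, and the young groups from mice of 3 months given vehicle. Each of these states was sampled in sorted brain microglia and in whole spinal cord. Csf1r is the growth factor receptor on which microglia depend, and its inhibition removes microglia, which return from surviving cells once the drug is withdrawn. The sort took Cd11b+ and Cd45+ cells of the brain, a gate that other myeloid cells can also pass. Whether each library is a separate animal is not stated, and the p-values therefore describe library-to-library spread, which may be technical.

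MHC class I molecules carry peptides from inside the cell to its surface, where CD8 T cells and natural killer cells read them. A heavy chain folds with beta-2 microglobulin in the endoplasmic reticulum, the Tap1-Tap2 transporter brings in peptides cut by the proteasome, and tapasin, the product of Tapbp, holds empty molecules at the transporter until a peptide is bound. H2-D1 and H2-K1 are classical heavy chains, H2-Q4, H2-Q7 and H2-T23 are nonclassical ones, and Nlrc5 is the transactivator that acts on class I promoters. Interferons raise most of these genes, and microglia of the resting brain are known to express them at a modest level.

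All 10 genes passed the filter on low counts in both tissues, where 14382 genes were tested in microglia and 18271 in cord. Total counts per library lay between 18741936 and 34496308 in microglia and between 15909868 and 33004806 in cord. H2-Q7, with the fewest reads of the 10 genes in young cord, had 35 to 185 reads there, and B2m in repopulated microglia had 117946 to 206608. Summed microglial markers, among them Csf1r, P2ry12 and Tmem119, had medians of 46504 CPM (reads scaled to a common library size) in repopulated, 44415 in old and 62503 in young sorted cells. They had medians of 463, 393 and 282 CPM in repopulated, old and young cord, where neuronal and oligodendrocyte markers were abundant. CPM below are scaled by the TMM method within each tissue and are not compared between tissues. The scaling changes the split of calls over all genes in microglia: with TMM, 55.7% of the genes called between repopulated and old microglia were higher, and with total counts 17.6%. For old against young microglia these shares were 50.7% and 60.5%, and for repopulated against young microglia 49.4% and 31.8%. For repopulated against young cord they were 72.4% and 84.6%.

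Class I heavy chain promoters are known to carry a kappa B element next to an interferon-stimulated response element (ISRE), and promoter sequence is shown for the 6 genes with letters of a kB element or of an ISRE, to set the heavy chains and the light chain side by side. RefSeq promoter windows of GRCm38.p6 were on hand for 8 of the 10 genes, not for Tap2 and Nlrc5. Each line gives 130 bases, 5' to 3' on the gene's own strand, and capitals mark every match on either strand to GGGATTNCC (kB), GAAGTGAAA (class I ISRE), GAAANNGAA (ISRE core) or CCAAT that lies wholly in the stretch. The stretches lie at chr17:35262915-35263044 (+) for H2-D1, chr17:34000337-34000466 (-) for H2-K1, chr17:35379435-35379564 (+) for H2-Q4, chr17:35439013-35439142 (+) for H2-Q7, chr17:36032724-36032853 (-) for H2-T23 and chr2:122147519-122147648 (+) for B2m.
H2-D1: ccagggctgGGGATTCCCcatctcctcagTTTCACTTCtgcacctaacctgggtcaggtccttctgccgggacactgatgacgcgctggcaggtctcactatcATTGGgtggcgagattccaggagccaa
H2-K1: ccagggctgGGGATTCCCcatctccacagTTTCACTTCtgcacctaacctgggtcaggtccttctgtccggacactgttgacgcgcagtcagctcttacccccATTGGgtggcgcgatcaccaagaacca
H2-Q4: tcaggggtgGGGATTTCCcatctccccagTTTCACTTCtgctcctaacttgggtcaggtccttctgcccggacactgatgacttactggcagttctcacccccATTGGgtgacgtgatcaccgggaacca
H2-Q7: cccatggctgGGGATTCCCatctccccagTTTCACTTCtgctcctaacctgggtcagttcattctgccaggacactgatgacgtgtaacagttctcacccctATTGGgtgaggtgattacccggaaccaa
H2-T23: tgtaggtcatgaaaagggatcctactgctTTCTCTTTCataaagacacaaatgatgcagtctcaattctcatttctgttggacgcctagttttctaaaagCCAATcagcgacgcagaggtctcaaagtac
B2m: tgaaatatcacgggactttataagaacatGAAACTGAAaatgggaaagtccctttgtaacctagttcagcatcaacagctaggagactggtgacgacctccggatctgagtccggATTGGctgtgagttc

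The stretches of 4 heavy chain genes, all but H2-T23, were 81.8% to 87.0% identical in pairwise alignment, whereas that of H2-T23 shared 44.6% to 51.1% with them. In the 250 bases before the RefSeq start, the class I ISRE letters stood in these 4 genes and in 0.402% of 32851 RefSeq windows. The kB letters stood in the same 4 genes and in 0.822% of windows. The ISRE core letters stood in H2-T23 and B2m and in 7.13% of windows. CCAAT stood in all 8 genes with a window, against 33.85% of windows, and the letters TTCNNNGAA, which 7.02% of windows hold, in none of the 8. No matches of different motifs overlapped in the 8 genes. The kB and class I ISRE letters were taken from elements known in class I promoters. The motifs were shortened after a first search with longer forms, in which H2-Q7 had no kB match. The 4 genes are also close copies here, so the shares of windows describe how common the letters are and are no test of enrichment. A match of letters is a description of the sequence and not a shown binding site.

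**Figure D1:**
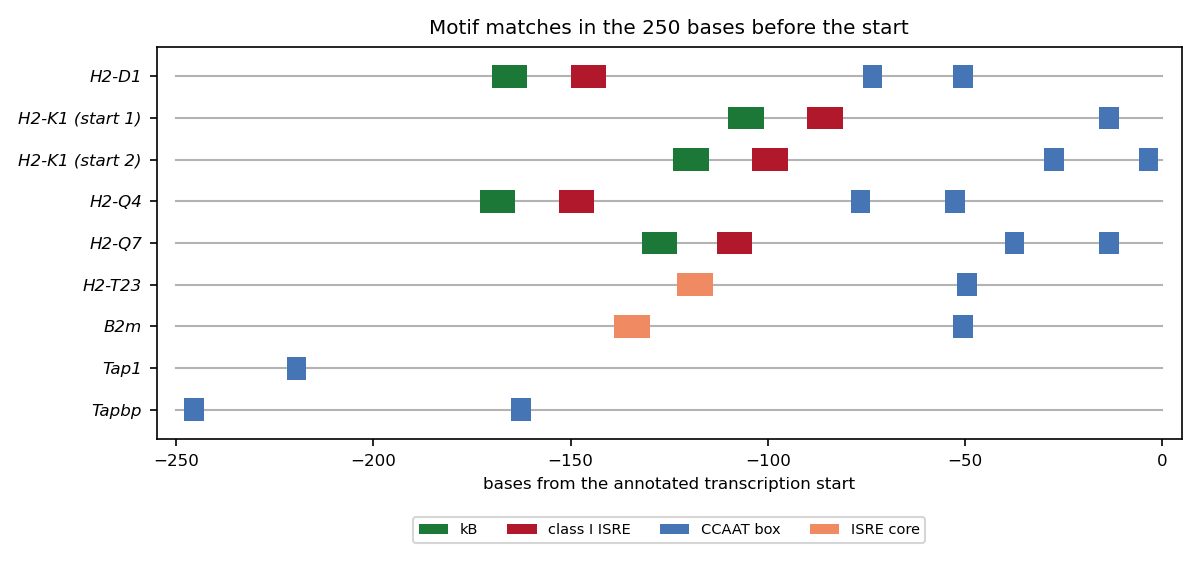
Position of motif matches in the 250 bases before the annotated start of the 8 genes with a RefSeq window (horizontal axis, bases from the start; H2-K1 has a pair of annotated starts). Bars mark matches on either strand to the kB, class I ISRE, ISRE core and CCAAT letters. A kB match lies upstream of a class I ISRE match in H2-Q7, H2-Q4, H2-K1 and H2-D1.

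By the GENCODE M21 annotation of GRCm38, 8 of the 10 genes lie on chromosome 17, where H2-K1 (33996017-34000347), Tapbp (33915899-33929292), Tap1 (34187553-34197225), Tap2 (34203527-34216321), H2-D1 (35262730-35267499), H2-Q4 (35379617-35385290), H2-Q7 (35439155-35443773) and H2-T23 (36029773-36032855) form part of the MHC. B2m lies on chromosome 2 (122147686-122153083) and Nlrc5 on chromosome 8 (94434356-94527272). The promoter windows above were counted from RefSeq starts, which can differ from the GENCODE bounds. The printed stretches of H2-D1 and H2-T23 lie inside these GENCODE bounds, and that of H2-K1 overlaps them in part. Close copies can share reads: 34.9% of the 50-base stretches of the H2-Q7 transcript also occurred in transcripts of other genes, most of all H2-Q6. The share was 28.8% for H2-T23, 24.2% for H2-Q4, 14.3% for H2-D1 and 8.79% for H2-K1, and at most 2.001% for Tap1, Tap2 and Tapbp. None of the 50-base stretches of B2m or Nlrc5 occurred in another gene. The levels of H2-Q7, H2-T23 and H2-Q4 are therefore uncertain to the extent that the counting assigned such reads to one copy or another. The library kit does not keep strand, so reads in the exons that Tap1 shares with Psmb9 on the opposite strand cannot be told apart, and the same holds for exons of H2-Q4, Tap2, Tapbp and Nlrc5 that overlap other genes.

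On the authors' deposited TPM, which are per length and can be set side by side between genes, B2m was the most abundant of the 10 transcripts in every group. Its medians were 12642 TPM in repopulated, 8487 in old and 5185 in young microglia, and 1053 TPM in repopulated, 755 in old and 469.5 in young cord. H2-D1 followed, with medians of 4331, 2480.0 and 977 TPM in repopulated, old and young microglia. The lowest transcript was Nlrc5, at 7.63, 4.95 and 1.35 TPM in repopulated, old and young microglia. For B2m, H2-D1 and H2-K1 all 6 groups kept the same order: repopulated, old and young microglia came first, with no overlap between neighbours, and then repopulated, old and young cord, where neighbours overlapped. Nlrc5 stood apart, since its TPM ranges in microglia and cord overlapped in each of the 3 states. H2-Q4 and H2-Q7 in young microglia, with medians of 41.9 and 5.34 TPM, overlapped in TPM with old cord, at medians of 44.4 and 9.95.

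The first comparison asked how class I transcripts of old microglia differ after depletion and return of the cells. In repopulated microglia 8 of the 10 genes were higher than in old microglia and none was lower, by edgeR's quasi-likelihood test with Benjamini-Hochberg adjustment over all genes tested at an adjusted p under 0.05, while 9.05% of all genes were called higher and 7.2% lower. For 7 of the 10 genes every repopulated library lay above every old library, which was so for 2.09% of all genes. The median log2 fold change was 0.85 over the 10 genes and -0.04 over all genes tested.

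H2-D1, the most abundant heavy chain, had a lowest, median and highest CPM of 3549, 3841 and 5384 in repopulated microglia, against 1523, 1838 and 2336 in old microglia. That is a log2 fold change of 1.076 ± 0.11 (SE, n = 8 against 8, adjusted p = 2.29e-08 by edgeR). The groups did not overlap, and repopulated replicate 1 stood well above the other 7 repopulated libraries. H2-K1, the other classical heavy chain, ranged from 1882 to 3054 CPM around a median of 2015 in repopulated microglia, against 914 to 1471 CPM around 1118 in old microglia, with a log2 fold change of 0.88 ± 0.11 (adjusted p = 6.53e-07 by edgeR). Its groups were also apart, and the same library was the highest.

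H2-Q7, which encodes a nonclassical heavy chain of the Qa-2 type, gave the largest fold change of the 10 genes. Its lowest, median and highest values were 81.7, 91.8 and 169 CPM in repopulated microglia, against 17.7, 29.1 and 52.3 CPM in old microglia, a log2 fold change of 1.65 ± 0.25 (adjusted p = 1.81e-05 by edgeR). No old library reached the lowest repopulated one. H2-Q4 had 129, 138 and 199 CPM in repopulated microglia, against 61.8, 77.0 and 109.7 CPM in old microglia, and its log2 fold change was 0.89 ± 0.11 (adjusted p = 3.1e-07 by edgeR). H2-T23, whose product Qa-1 presents leader peptides to natural killer receptors, differed far less: 347, 396 and 537 CPM in repopulated microglia against 269, 338 and 422.8 CPM in old microglia, with overlapping groups and a log2 fold change of 0.28 ± 0.09 (adjusted p = 0.0232 by edgeR). The call on H2-T23 was lost by edgeR without repopulated replicate 1 (log2 0.21, adjusted p = 0.0685) or old replicate 3 (log2 0.24, adjusted p = 0.0532). It was also lost by edgeR with total-count scaling (log2 0.11, adjusted p = 0.293). In TPM the medians of H2-T23 were 602 in repopulated and 599 in old microglia, with overlapping ranges.

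B2m had 5003, 5365 and 7349 CPM in repopulated microglia, against 2424, 3141 and 4004 CPM in old microglia, and its log2 fold change was 0.84 ± 0.10 (adjusted p = 2.23e-07 by edgeR). Every repopulated library exceeded every old one, and replicate 1 was again the highest. Nlrc5 had 25.6, 30.3 and 37.8 CPM in repopulated microglia, against 13.4, 17.3 and 22.8 CPM in old microglia, a log2 fold change of 0.81 ± 0.17 (adjusted p = 0.000786 by edgeR), without overlap.

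Among the peptide loading genes Tap1 changed and its partner Tap2 did not pass the test. Tap1 had 219.6, 245 and 363 CPM in repopulated microglia, against 123, 132 and 176 CPM in old microglia, with no overlap and a log2 fold change of 0.86 ± 0.10 (adjusted p = 9.05e-08 by edgeR). Tap2 had 146, 169.9 and 189 CPM in repopulated microglia, against 153, 159 and 176 CPM in old microglia, and the log2 difference of 0.07 ± 0.06 had an interval of -0.05 to 0.19. Tapbp had 558, 619 and 712 CPM in repopulated microglia, against 520.1, 561 and 656 CPM in old microglia, a log2 difference of 0.13 ± 0.07 with an interval of -0.0027 to 0.26. Both intervals span 2 standard errors on each side, and both pairs of groups overlapped. Tap2 turned round on the TPM scale, to a log2 change of -0.19 in repopulated against old microglia (adjusted p = 0.0303 by limma), where the median over all genes was -0.21.

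Repopulated replicate 1 was the highest of its group for 8 of the 10 genes. Without it, 7 genes were still called higher by edgeR, with log2 fold changes of 0.76 for Nlrc5 to 1.51 for H2-Q7.

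**Figure D2:**
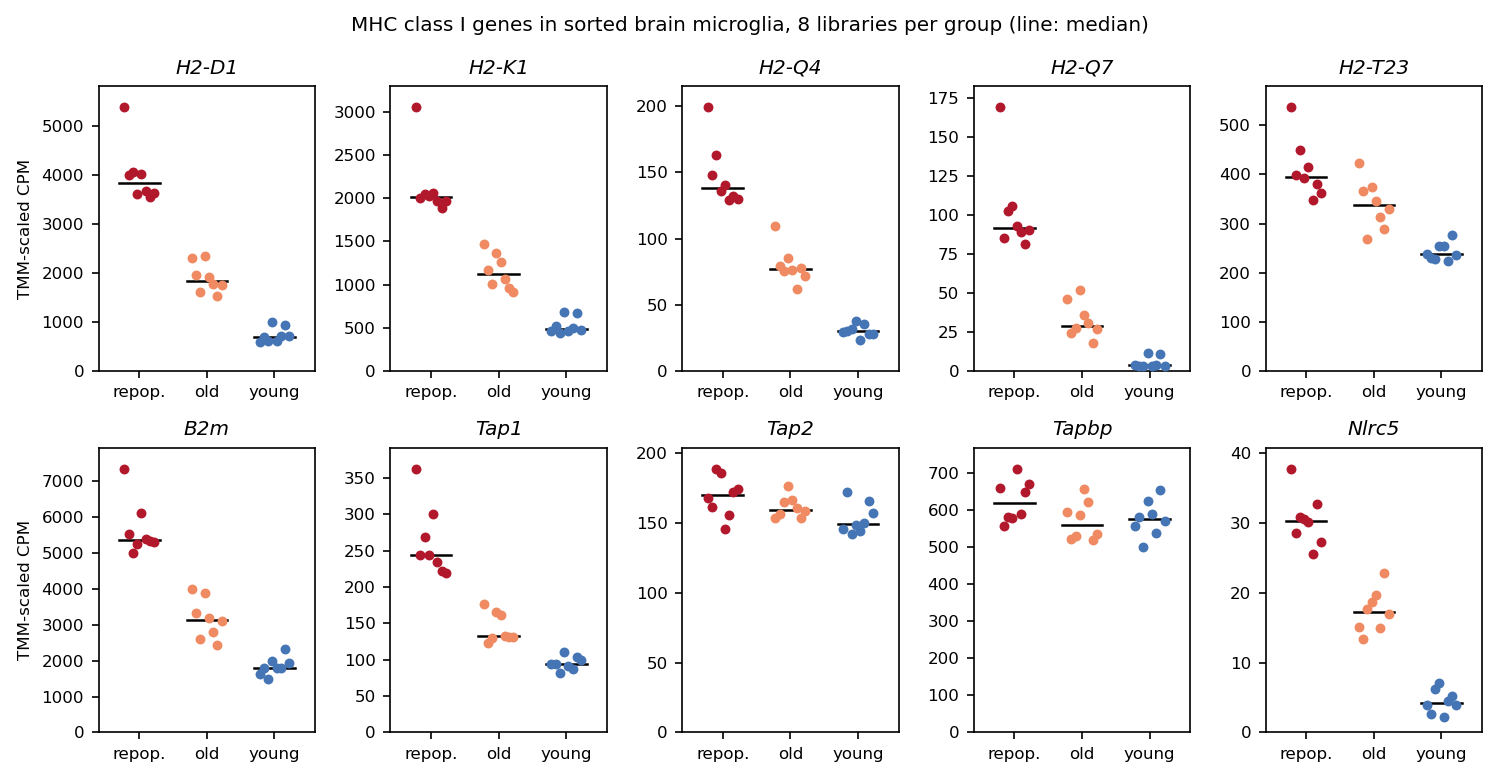
TMM-scaled CPM (vertical axes from 0) of the 10 genes in sorted brain microglia, each point 1 library and each line the median of 8. Repopulated, old and young libraries form separate levels for H2-D1, H2-K1, H2-Q4, H2-Q7, B2m, Tap1 and Nlrc5, and overlap for Tap2 and Tapbp.

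Old against young microglia addressed the effect of age. The old libraries are also those set against repopulated ones above, so these comparisons are not independent. In old microglia 8 of the 10 genes were higher than in young microglia and none was lower, while 11% of all genes were called higher and 10.7% lower by edgeR. For 7 genes every old library lay above every young library, as for 4.12% of all genes. The median log2 fold change was 0.95 over the 10 genes and -0.01 over all genes.

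H2-Q7 had 17.7, 29.1 and 52.3 CPM in old microglia, against 2.89, 3.48 and 11.3 CPM in young microglia. Young replicates 4 and 7 stood apart, at 11.3 and 11.2 CPM, and the next highest young library had 4.11 CPM. The log2 fold change was 2.602 ± 0.27 (adjusted p = 9.49e-09 by edgeR), and no libraries overlapped. Nlrc5 followed with 13.4, 17.3 and 22.8 CPM in old microglia, against 2.23, 4.23 and 7.08 CPM in young microglia, without overlap and with a log2 fold change of 1.96 ± 0.17 (adjusted p = 4.46e-10 by edgeR).

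H2-D1 had 1523, 1838 and 2336 CPM in old microglia, against 589.6, 699.5 and 1001 CPM in young microglia. H2-K1 had 914, 1118 and 1471 CPM in old microglia, against 436.9, 489 and 678 CPM in young microglia, and neither classical heavy chain had overlapping groups. Old over young log2 fold changes were 1.38 ± 0.11 for H2-D1 (adjusted p = 4.03e-11 by edgeR) and 1.12 ± 0.11 for H2-K1 (adjusted p = 3.09e-09). H2-Q4, at 61.8, 77.0 and 109.7 CPM in old and 23.4, 29.9 and 37.6 CPM in young microglia, gave 1.39 ± 0.11 (adjusted p = 1.67e-11 by edgeR). H2-T23 was again the heavy chain with the smallest fold, 0.48 ± 0.09 (adjusted p = 7.68e-05 by edgeR), and its libraries overlapped, with 269 to 422.8 CPM in old and 224 to 276 CPM in young microglia.

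B2m had 2424, 3141 and 4004 CPM in old microglia, against 1482, 1801 and 2312 CPM in young microglia, narrowly apart and with a log2 fold change of 0.78 ± 0.10 (adjusted p = 2.92e-07 by edgeR). Tap1 had 123, 132 and 176 CPM in old microglia, against 81.5, 94.0 and 109.9 CPM in young microglia, also apart and with a log2 fold change of 0.60 ± 0.10 (adjusted p = 1.68e-05 by edgeR). Tap2 and Tapbp did not pass the test, with log2 differences of 0.07 (interval -0.05 to 0.19) and -0.01 (interval -0.15 to 0.12), and the sign of that for Tapbp turned to 0.02 with total-count scaling.

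Set against young microglia, repopulated microglia were higher for 8 of the 10 genes and lower for none, where 16.1% of all genes were called higher and 16.5% lower by edgeR. For all 8 of these genes every repopulated library lay above every young library, as for 7.2% of all genes. The median log2 fold change was 1.81 over the 10 genes and -0.06 over all genes. H2-Q7 had the largest log2 fold change, 4.25 ± 0.29, which is 19.0-fold (adjusted p = 3.35e-13 by edgeR). Its young libraries were split, with replicates 4 and 7 above the others as given above. Nlrc5 reached 2.76 ± 0.18, H2-D1 2.45 ± 0.11, H2-Q4 2.27 ± 0.11, H2-K1 2.01 ± 0.11, B2m 1.62 ± 0.10, Tap1 1.46 ± 0.10 and H2-T23 0.76 ± 0.09 in log2 fold change. Tap2 and Tapbp did not pass, at 0.14 ± 0.06 (adjusted p = 0.0705 by edgeR) and 0.12 ± 0.07 (adjusted p = 0.2), and both turned round in TPM, to log2 changes of -0.18 and -0.21 (adjusted p = 0.0231 and 0.0034 by limma), against a median of -0.28 over all genes. Tap2 was called higher under 5 other alternatives, at log2 changes of 0.16 to 0.18 (adjusted p = 0.0123 by the DESeq2 Wald test to 0.0458 by edgeR without old replicates 2 and 7), and in 12 of the 24 refits that each left out 1 library, so its call and its direction depend on the processing.

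Markers of other myeloid cells differed between the sorted groups. The summed CPM of 10 monocyte markers ranged over 308 to 724 in repopulated, 617 to 1607 in old and 85.7 to 242 in young microglia. That of 10 neutrophil markers ranged over 845 to 3839 in repopulated, 2121 to 9215 in old and 224 to 1043 in young microglia, and that of 10 border macrophage markers over 87.3 to 213, 378 to 761 and 181 to 440.9. Of all genes, 9.05% were called higher and 7.2% lower in repopulated against old microglia. The shares were 11% and 10.7% in old against young and 16.1% and 16.5% in repopulated against young microglia. Between repopulated and old microglia, in which the class I genes were higher, 7 of 10 monocyte, 8 of 10 neutrophil and 10 of 10 border macrophage markers were lower. Between old and young microglia 10, 9 and 7 of the 10 markers of these lists were higher, and between repopulated and young microglia 9, 9 and 1 were higher and 0, 0 and 9 lower. Of the 10 microglial markers, 10 were lower in old than in young microglia and 8 in repopulated than in young microglia. The 8 dendritic cell markers summed to 21.01 to 47.6 CPM in repopulated, 33.2 to 115 in old and 26.1 to 43.9 in young microglia, and 4 of them were higher in old than in young microglia. The 8 B cell markers summed to 92.0 to 182 CPM in repopulated, 132 to 345 in old and 62.4 to 107 in young microglia, with 2 higher and 1 lower between old and young. The 10 endothelial markers summed to 53.3 to 247 CPM in repopulated, 136 to 418.3 in old and 103 to 271 in young microglia, and 4 were lower in repopulated than in old microglia while 2 were higher in old than in young. The part of all these markers in the class I differences was not tested. The 12 matched T and natural killer cell markers summed to at most 27.9 CPM in repopulated, 28.0 in old and 18.9 in young microglia, and median Cd3e was 0 in repopulated, 0 in old and 0.114 CPM in young microglia.

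In whole cord the same 10 genes were measured in a tissue where microglia are a minority, so more cells of a type and more RNA per cell cannot be told apart. None of the 10 genes was called between repopulated and old cord by edgeR's quasi-likelihood test, where 0.148% of all genes, 27 in number, were called higher and 0% lower. All 10 had an unadjusted p under 0.05 and a positive log2 difference, with a median of 0.61 against 0.01 over all genes tested. The DESeq2 Wald test called 5 of the 10 higher, and limma-voom with quality weights also called 5. For no gene were all repopulated libraries above all old ones, as was so for 0.0493% of all genes.

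Tap1 came nearest to the threshold in repopulated against old cord, at 13.8, 20.4 and 31.2 CPM in repopulated and 10.9, 11.7 and 16.5 CPM in old cord, with a log2 difference of 0.69 ± 0.15 (adjusted p = 0.0738 by edgeR). B2m had 254, 324 and 578 CPM in repopulated cord, against 201, 219 and 296 CPM in old cord, a log2 difference of 0.60 ± 0.14 (adjusted p = 0.0979 by edgeR). H2-D1 had 209, 257 and 408.7 CPM in repopulated cord, against 158, 181 and 240.2 CPM in old cord, a log2 difference of 0.55 ± 0.14 (adjusted p = 0.134 by edgeR). In each of the 3 genes the medians were apart but single libraries overlapped. Repopulated replicate 6 was the highest of its group in CPM for 9 of the 10 genes and replicate 7 the lowest for 8, while old replicate 3 was the highest of its group for all 10.

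Those libraries bear on the size of the difference. Without repopulated replicate 6 the log2 differences from old cord were 0.45 for H2-D1 and B2m, 0.50 for H2-K1 and 0.58 for Tap1, with none called by edgeR. Without repopulated replicate 7, B2m, H2-T23, Tap1 and Nlrc5 were called. Without old replicate 3, B2m and Tap1 were called, and without repopulated replicate 5 Tap1 was. Leaving out young replicate 5 brought B2m past the threshold, at an adjusted p of 0.0482. Replicate 6 had a total of 17702778 counts and a TMM factor of 0.906, and on the TPM scale it was the highest of its group for none of the 10 genes. In TPM it was the lowest for Tap2, Tapbp and Nlrc5 and near the lowest for H2-D1, at 351 TPM in a range of 350.2 to 490.4. It lay above the group median in TPM for H2-K1, at 228 in a range of 165 to 256, for H2-T23, at 80.6 in a range of 58.5 to 86.2, and for H2-Q7, at 25.9 in a range of 11.2 to 29.3.

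Between old and young cord 8 of the 10 genes were higher and none was lower, while 4.88% of all genes were called higher and 1.26% lower by edgeR. For Tap2 and Nlrc5 every old library lay above every young library, as for 2.45% of all genes. The median log2 fold change was 0.62 over the 10 genes and -0.01 over all genes.

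Nlrc5 had 7.68, 8.50 and 12.003 CPM in old cord, against 2.34, 3.79 and 5.52 CPM in young cord, a log2 fold change of 1.23 ± 0.18 (adjusted p = 2.25e-05 by edgeR). H2-Q7 had 3.75, 5.92 and 10.9 CPM in old cord, against 1.26, 2.33 and 6.59 CPM in young cord, a log2 fold change of 1.28 ± 0.32 (adjusted p = 0.0121 by edgeR). Young replicate 5 was the highest young library for H2-Q7 and for 8 of the 10 genes. H2-Q4 gave 0.91 ± 0.17 (adjusted p = 0.000688 by edgeR), Tap1 0.64 ± 0.16 (adjusted p = 0.00909), B2m 0.63 ± 0.14 (adjusted p = 0.00396) and H2-D1 0.58 ± 0.14 (adjusted p = 0.00701).

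H2-K1 passed the test between old and young cord by a narrow margin, at 0.61 ± 0.17 (adjusted p = 0.0265 by edgeR). Its call was lost without old replicate 3 or without any of young replicates 3, 6, 7 and 8, at adjusted p of 0.0571 to 0.0672. Tap2 had 29.3, 31.3 and 38.0 CPM in old cord, against 19.7, 24.7 and 26.5 CPM in young cord, a log2 fold change of 0.40 ± 0.10 (adjusted p = 0.00976 by edgeR). H2-T23 and Tapbp did not pass, at log2 differences of 0.35 ± 0.16 and 0.17 ± 0.11 (adjusted p = 0.269 and 0.517 by edgeR). H2-T23 was called under 5 alternatives at log2 differences of 0.34 to 0.39 (adjusted p = 0.0313 by limma-voom to 0.0416 by edgeR on the old and young libraries alone). Both TPM settings and the fit without repopulated replicate 6, which shares the estimate of the spread, were among them, the last at 0.35 (adjusted p = 0.0342 by edgeR).

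Repopulated cord was higher than young cord for all 10 genes, against 7.28% of all genes called higher and 2.78% lower by edgeR. For 9 of the 10, Tapbp being the exception, every repopulated library lay above every young library, as for 2.96% of all genes. The median log2 fold change was 1.27 over the 10 genes and 0.01 over all genes. H2-Q7 had the largest value, 2.29 ± 0.32 (adjusted p = 1.2e-05 by edgeR), followed by Nlrc5 at 1.85 ± 0.18 and H2-Q4 at 1.499 ± 0.17. Tap1 at 1.34 ± 0.16, H2-K1 at 1.30 ± 0.17, B2m at 1.23 ± 0.14, H2-D1 at 1.14 ± 0.14 and H2-T23 at 1.004 ± 0.16 were close together, and Tap2 at 0.66 ± 0.10 and Tapbp at 0.43 ± 0.11 had the smallest log2 fold changes. Without repopulated replicate 6 all 10 genes were still called, at 0.32 for Tapbp to 2.03 for H2-Q7.

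**Figure D3:**
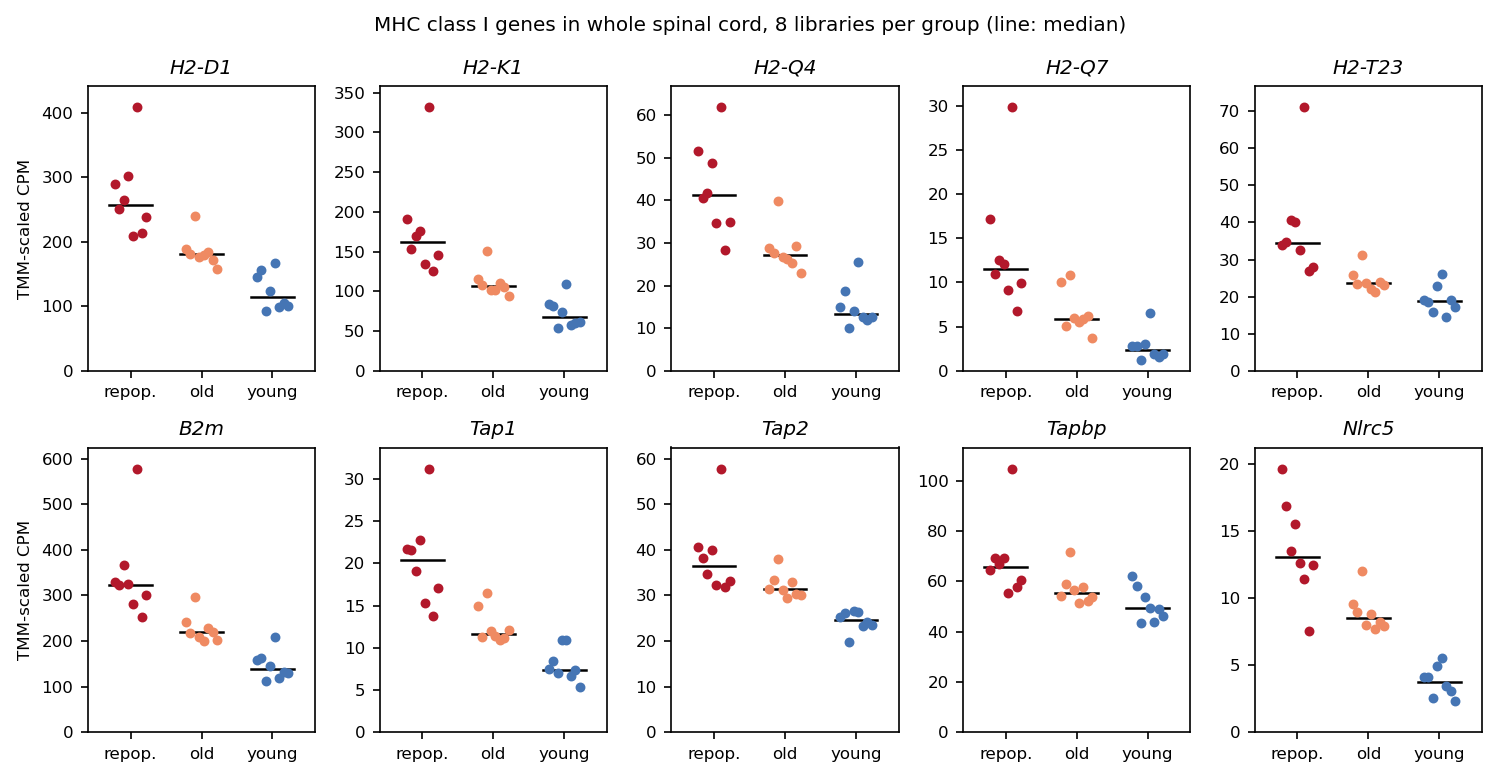
TMM-scaled CPM (vertical axes from 0) of the 10 genes in whole spinal cord, each point 1 library and each line the median of 8. Repopulated replicate 6 is the highest point of its group for 9 genes, and repopulated libraries overlap with old ones for every gene.

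Markers of microglia in cord differed between the groups in the same order as the class I genes. The summed CPM of 10 microglial markers ranged over 408.6 to 552 in repopulated, 360.4 to 454 in old and 255 to 341 in young cord. Of these markers 1 was called higher between repopulated and old cord, 5 between old and young cord and 7 between repopulated and young cord, and their part in the class I differences was not tested. Of all genes, 0.148%, 4.88% and 7.28% were called higher in these comparisons, and 0%, 1.26% and 2.78% lower. T and natural killer cell markers summed to 4.41 to 9.17 CPM in repopulated, 3.07 to 9.26 in old and 1.61 to 4.67 in young cord, with 2 of the 4 markers tested higher in old than in young cord and 3 higher in repopulated than in young cord. Schwann cell markers summed to 4645 to 6438 CPM in repopulated, 4202 to 6887 in old and 6755 to 10027 in young cord, and 3 of 8 were lower in old and 3 in repopulated than in young cord. B cell markers had 0, 2 and 1 of 8 members higher for repopulated against old, old against young and repopulated against young cord. Monocyte and neutrophil markers had no member called in any of the 3 cord comparisons. Endothelial markers, from cells that also express class I, had 0, 1 and 3 of 10 members higher for repopulated against old, old against young and repopulated against young cord. The part of these lists was not tested either.

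**Figure D4:**
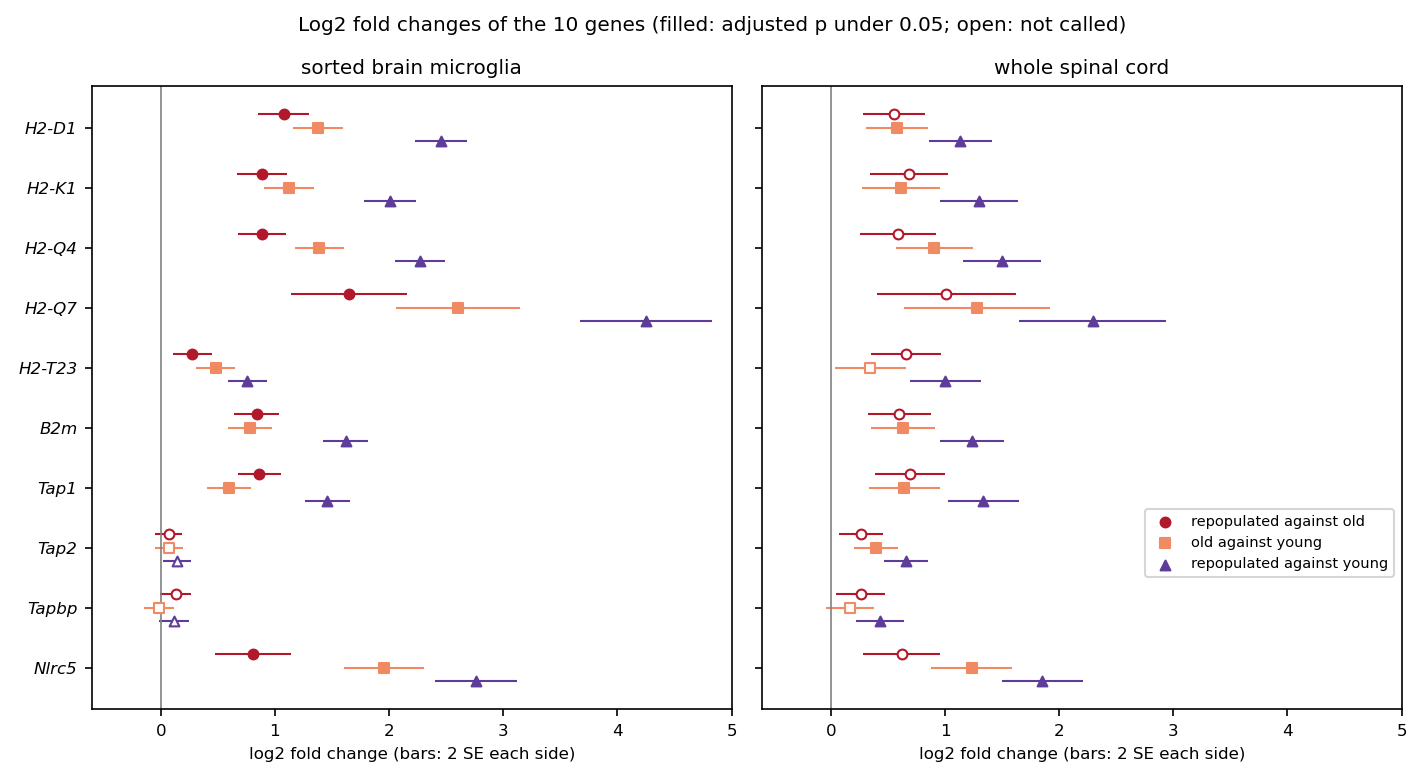
Log2 fold changes of the 10 genes (horizontal axis) in the 3 comparisons of each tissue, with bars of 2 standard errors on each side. Filled symbols passed an adjusted p under 0.05 by edgeR; open symbols did not, which applies to Tap2 and Tapbp in all microglia comparisons, to all 10 genes for repopulated against old cord and to H2-T23 and Tapbp for old against young cord.

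Whether the tissues differed was tested in 1 model over all 48 libraries and 19110 genes, as the log2 change in microglia minus that in cord. TMM scaling was redone over both tissues together for this model. The results are therefore not exact differences of the log2 changes given above. For Tapbp those old against young changes were -0.01 in microglia and 0.17 in cord, beside -0.34 in this model. For old against young this difference passed for 3 of the 10 genes, where 20.5% of all genes passed in either direction. H2-D1 differed more with age in microglia, by 0.64 ± 0.18 log2 units (adjusted p = 0.00788 by edgeR). Tap2 and Tapbp differed less in microglia, by -0.48 ± 0.12 (adjusted p = 0.00225) and -0.34 ± 0.12 (adjusted p = 0.0435). The median of this contrast over all genes was -0.15 with TMM and -0.01 with total counts, and Tapbp no longer passed under 6 of the 8 alternatives, total counts among them (-0.18, adjusted p = 0.317). H2-Q7, at 1.17 ± 0.44, did not pass (adjusted p = 0.0504 by edgeR), but did under 7 of the 8 alternatives. The share of positive differences among the genes called was 26.6% with TMM and 51.0% with total counts.

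For repopulated against old, the change in microglia and in cord was not shown to differ for any of the 10 genes by edgeR, where 11% of all genes passed. An unadjusted p under 0.05 was reached by 2 of them, H2-D1 at 0.49 ± 0.18 (adjusted p = 0.0619) and H2-T23 at -0.40 ± 0.18 (adjusted p = 0.138). H2-D1 passed by the DESeq2 Wald test (adjusted p = 0.0329) and by limma-voom (adjusted p = 0.0364), which each called 1 gene. With total counts H2-T23 and Tap2 passed instead, at -0.51 and -0.33, while 14.8% of the genes called were positive, against 31.6% with TMM.

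Proportions among the class I genes were taken from TPM and are described without a test. The summed TPM of the 5 heavy chains over that of B2m was 0.520 to 0.648 in repopulated microglia (median 0.556), 0.478 to 0.563 in old microglia (median 0.531) and 0.363 to 0.481 in young microglia (median 0.399). Old libraries overlapped with repopulated ones and narrowly with young ones, while repopulated and young libraries did not overlap. In cord this ratio had medians of 0.727 in repopulated, 0.736 in old and 0.749 in young libraries, and the 3 groups overlapped.

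Within the heavy chains, H2-D1 made up 60.3% to 62.9% of the summed TPM in repopulated microglia, 54.8% to 58.1% in old microglia and 45.1% to 52.0% in young microglia, so the groups were separate. H2-T23 went the other way, with 7.72% to 9.04% in repopulated, 12.2% to 14.4% in old and 17.4% to 25.2% in young microglia, also without overlap. H2-K1 held a similar share throughout, with medians of 26.3%, 27.5% and 28.0% in repopulated, old and young microglia. In cord the median share of H2-D1 was 52.8% in repopulated, 54.7% in old and 55.02% in young libraries. H2-Q4 held 8.19%, 7.99% and 6.32% there, more than the 2.19%, 2.26% and 1.96% of repopulated, old and young microglia.

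The transporter subunits, which work as a pair, were not kept in proportion. Tap1 over Tap2 in TPM was 1.06 to 1.83 in repopulated microglia (median 1.23), 0.662 to 0.972 in old microglia (median 0.711) and 0.461 to 0.625 in young microglia (median 0.533). All 3 groups were separate, and Tap1 exceeded Tap2 only in repopulated microglia libraries among all 48. Whether Tap1 exceeds Tap2 depends on the gene lengths behind the TPM, 2950 bases for Tap1 and 2490 for Tap2. In cord the medians were 0.454 in repopulated, 0.326 in old and 0.264 in young libraries.

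**Figure D5:**
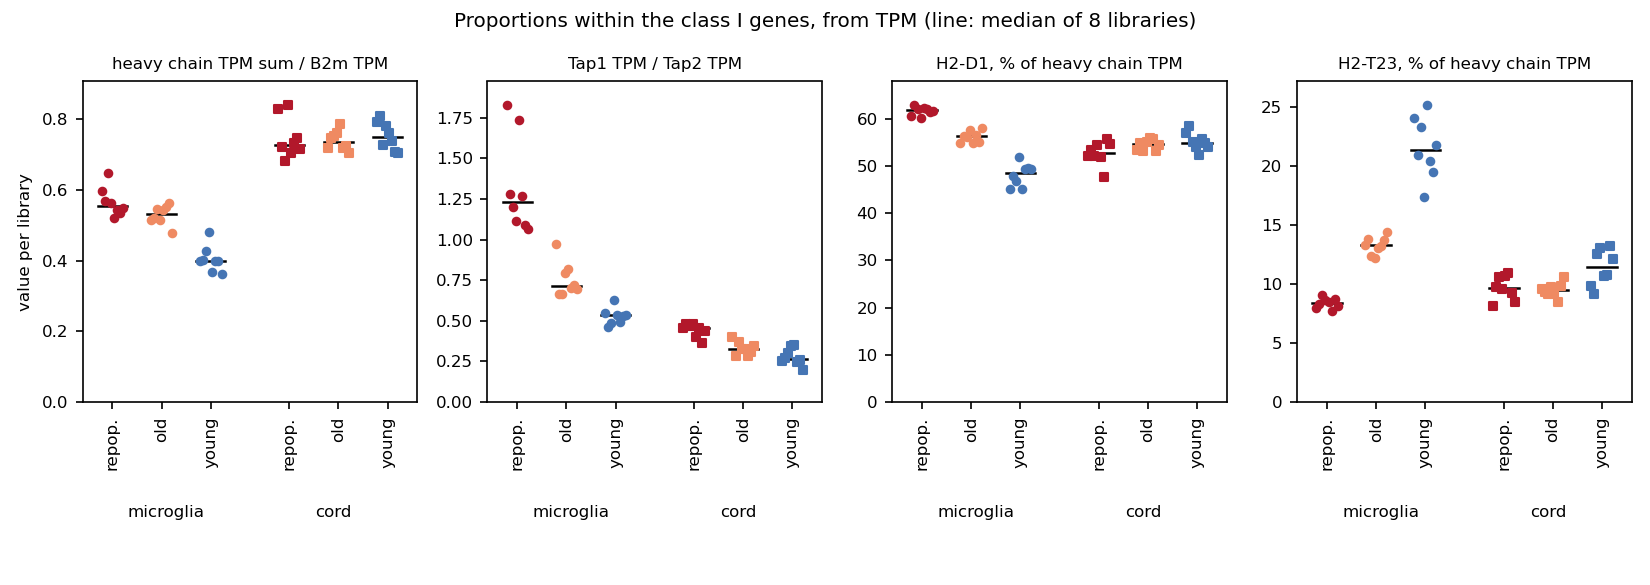
Proportions among the class I genes from deposited TPM, each point 1 library and each line the median of 8, in microglia (circles) and cord (squares). In microglia the ratio of Tap1 to Tap2 and the share of H2-D1 are highest in repopulated libraries and the share of H2-T23 is lowest there.

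Other genes of the pathway were counted from lists, and each count is to be read against all genes tested. In microglia 9.05% of all genes were called higher and 7.2% lower in repopulated against old, 11% and 10.7% in old against young, and 16.1% and 16.5% in repopulated against young. In cord 0.148%, 4.88% and 7.28% were called higher in the same order of comparisons. Of 14 other class I and class I-like chains tested in microglia, 5 were higher and 3 lower in repopulated against old, with a list median of -0.11 log2 units, and 6 were higher and 2 lower in old against young, with a median of 0.79. H2-T22, a nonclassical chain seen by gamma delta T cells, had a log2 fold change of 0.93 ± 0.12 in repopulated against old microglia and 0.73 ± 0.12 in old against young. H2-Q6, the close copy of H2-Q7, had 2.75 ± 0.22 in old against young microglia. Fcgrt, the neonatal Fc receptor, which also pairs with B2m, was lower in repopulated than in old microglia, at -0.44 ± 0.06. In cord 1 of 17 chains tested, H2-T22, was higher in repopulated against old, 8 in old against young and 10 in repopulated against young, where 2 were lower.

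The proteasome subunits that replace the constitutive ones under interferon, Psmb8, Psmb9 and Psmb10, gave 1 of 3 higher in repopulated against old microglia, 1 of 3 in old against young and 2 of 3 in repopulated against young. Psmb8 had log2 fold changes of 0.35 ± 0.11 and 0.41 ± 0.11 in the first 2 of these. In cord none of 3 was called in repopulated against old, 2 were higher in old against young and all 3 in repopulated against young, with 1.55 ± 0.21 for Psmb8.

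Of 16 other peptide processing and loading genes, 5 were higher and 1 was lower in repopulated against old microglia, 2 were higher and 2 lower in old against young, and 5 were higher and 5 lower in repopulated against young. The old against young counts lie near the 11% and 10.7% of all genes called higher and lower. Psme1, a subunit of the interferon-induced proteasome activator, rose by 0.71 ± 0.10 log2 units in repopulated against old microglia. Hspa5, the general chaperone of the endoplasmic reticulum, had -0.33 ± 0.07 in old against young microglia. In cord 0, 0 and 2 of the 16 were higher for repopulated against old, old against young and repopulated against young, and 1 was lower in the last.

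Among 21 regulators of class I transcription, 5 were higher and 3 lower in repopulated against old microglia, and 4 higher and 4 lower in old against young, beside 9.05% and 7.2%, and 11% and 10.7%, of all genes. The list medians were 0.01 and -0.06 log2 units. In cord 2 regulators were higher in repopulated against old, among them Irf9, a subunit of the factor that binds ISREs, at 0.54 ± 0.08. Irf8 led the 3 higher in old against young cord, at 1.198 ± 0.14, and 6 were higher in repopulated against young.

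Of 15 genes of the type I interferon response tested, 14 were higher in repopulated against old microglia and all 15 in old against young, with list medians of 0.98 and 1.66 log2 units. In cord 8 of 15 were higher in repopulated against old, 3 in old against young and 14 in repopulated against young. The list of interferon gamma response genes had 4 of 13 higher and 1 lower in repopulated against old microglia and 8 of 13 higher in old against young. It had 3, 5 and 10 of 13 higher in cord for repopulated against old, old against young and repopulated against young.

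Of 9 tested genes on a list of receptors for class I and CD8, none was higher and 3 were lower in repopulated against old microglia. These were Lilra5 at -0.40 ± 0.10, Klra2 at -1.23 ± 0.32 and Lilrb4a at -0.50 ± 0.15. Whether the product of each listed gene binds class I was not examined here. In old against young microglia 5 of the 9 were higher, among them Pirb, an inhibitory receptor for class I, at 1.29 ± 0.13. In old against young cord 3 of 7 were higher, including Pirb at 1.38 ± 0.19 and the T cell coreceptor chain Cd8a at 2.17 ± 0.46, though median Cd8a was 0.688 CPM in old and 0.137 CPM in young cord.

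The genes whose pattern over the 24 libraries of a tissue was closest to the mean of the 10 genes were found by the root mean square difference of centred log2 CPM, with a floor of 5 CPM on a gene's mean. In microglia Xaf1, Bst2, Phf11b and Cxcl16 were among the closest of 9365 candidates, at 0.18, 0.19, 0.21 and 0.21 log2 units. Of the 10 genes themselves H2-K1 lay nearest to their mean, at 0.12, and H2-Q7 farthest, at 1.15. In cord the closest were Grn, Pld4, Psmb9, Psmb8 and Sp110 of 12234 candidates, at 0.18, 0.18, 0.18, 0.19 and 0.21 log2 units, and B2m, at 0.09, was the nearest of the 10 genes.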

How the data were processed

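Polyadenylated RNA of sorted brain microglia and whole spinal cord was sequenced from an unstranded kit, per the labels. STAR 2.5.2b and the build GRCm38.p5 appear in the submitters' processing notes. Counting tool, annotation and read length: not given in the sources used here. Per gene, the authors deposited counts of whole reads, which were tested as they stand. The deposited TPM equal counts per length rescaled per library (99.997% of 762033 values within 1%) and served for levels between genes. FPKM were not used here.

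Counts were fitted per tissue over 24 libraries with edgeR 4.0.16 in R 4.3.3 (TMM, filterByExpr with a minimum count of 10 and total of 15, quasi-likelihood test, Benjamini-Hochberg over all genes tested), and over 48 libraries for differences between tissues. An adjusted p under 0.05 was called. CPM are TMM-scaled and log2 CPM use a prior count of 1. Alternatives used DESeq2 1.42.0, limma 3.58.1 on log2(TPM + 1) and log2(TPM + 0.1), other scalings and filters, a replicate block and libraries left out. Scripts were tested on simulated data.

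All 10 members are named, and from 20 lists the counts plus, of the 3 called genes with the smallest adjusted p, those described. Of 230 list entries 8 were not analysed here. The members and lists were chosen with earlier results of these data known. Same-numbered libraries did not deviate together on average (mean correlations of -0.12 to 0.07 between groups), though single pairs in cord ranged from -0.44 to 0.39. This does not settle whether such libraries share an animal or a batch. The labels pair no libraries, and numbers were not used to pair samples in the main fits. All 168 pairs of libraries within a group differed beyond sampling noise (chi-square per gene 3.24 or more). Promoter motifs were shortened after a first search with longer forms, in which H2-Q7 had no kB match. A gene that the naming rules select is not reported here.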

Additional observations from a re-analysis of the deposited data

Results flagged for a closer look

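For each of the 10 genes and 6 groups, 60 sets of 8 libraries, the highest and lowest library were checked for a gap to the nearest other library that is large against the range of its group (Dixon's criterion at 95%). Chance would flag about 1 in 20 independent sets, and 18 were marked here, all for a highest library. The 60 sets are not independent, since the 10 genes were read in the same libraries, so 18 cannot be judged by that rate.

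Repopulated cord replicate 6 stood apart for 7 genes, with 408.7 CPM for H2-D1, 332 for H2-K1, 29.8 for H2-Q7, 71.1 for H2-T23, 578 for B2m, 57.8 for Tap2 and 104.8 for Tapbp. Old cord replicate 3 did for 7 genes, with 240.2 CPM for H2-D1, 151 for H2-K1, 39.9 for H2-Q4, 31.2 for H2-T23, 296 for B2m, 71.8 for Tapbp and 12.003 for Nlrc5. Repopulated microglia replicate 1 stood apart with 5384 CPM for H2-D1, 3054 for H2-K1 and 169 for H2-Q7. Young cord replicate 5 did for H2-Q7 alone, with 6.59 CPM, against 3.03 in the nearest young library.

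The change between old and young differed between the tissues by the interaction test for 3 genes. The differences (microglia minus cord) were 0.64 log2 units for H2-D1, -0.48 for Tap2 and -0.34 for Tapbp. Of all genes tested, 20.5% passed in either direction, and the median difference over all genes was -0.15. Tapbp no longer passed under most of the alternatives, total counts among them.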

How the results depend on the processing

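Counts of the 10 genes called kept within 1.5 times of the reported ones under each alternative for repopulated against old, old against young and repopulated against young microglia, for old against young and repopulated against young cord, and for the tissue difference of old against young. Leaving out each library gave 7 to 8, 8 to 8 and 8 to 9 genes for the 3 microglia comparisons in that order, 7 to 9 for old against young cord, 10 to 10 for repopulated against young cord and 0 to 4 for repopulated against old cord, where the DESeq2 and limma-voom tests gave 5 and 5. The tissue difference of repopulated against old, reported as 0 genes, gave 1 with DESeq2 size factors, the DESeq2 test, limma-voom, no filter on low counts, and without old microglia replicates 2 and 7 and repopulated cord replicate 6, and gave 2 with total counts. A fit with the replicate number as a block, which is not known to pair samples, gave 8 genes for each of the 3 microglia comparisons. It gave 8 for old against young cord, 10 for repopulated against young cord and 0 for repopulated against old cord. The tissue differences gave 4 for old against young and 0 for repopulated against old. Of called values, Tap2 and Tapbp reversed, in TPM: Tap2 to -0.19 with either pseudocount against old microglia and -0.18 against young, and Tapbp to -0.21 against young. The cause was not tested. Median log2 changes over all genes were -0.27 and -0.41 there with the pseudocount of 0.1. Genes called over the whole table moved beyond 1.5 times for repopulated against old microglia (2336, and 4643 to 4779 in TPM), repopulated against young microglia (4698, and 7378 to 7478 in TPM), old against young cord (1123, and 2430 with limma-voom, 1844 from the compared groups alone and 2109 without repopulated cord replicate 6), repopulated against young cord (1839, and 1003 in TPM), repopulated against old cord (27, and 12 to 66) and, with total counts, the tissue differences (3913 and 2606, 2107 and 3307). H2-Q7 had the fewest reads of the 10 genes in young cord, 35 to 185, and the largest standard error of the 10 in each comparison within a tissue, 0.25 to 0.32.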
